A study of Homo sapiens with 12 samples.

Results

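RSAD2, CMPK2 and NRIR are 3 neighbouring interferon-responsive genes at one end of human chromosome 2. They were taken as the 3 rows of the gene table that carry these symbols, out of 60099 genes, and were selected on measured values, since their rise under IFNα in these samples was known when they were picked. Their levels against the untreated controls are therefore given as a description without a test. Tests were kept for what that choice did not use, namely the step from 20 to 200 ng/ml, the contrast between line sets, the proportions among the 3 genes and among their transcripts, and the genes around them. Lists of genes from related pathways were also compared with the controls. These lists were chosen with earlier results of these data known, so their calls and p-values against control are descriptions.

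The samples were cultures of Cal27 and HN30, established cell lines of head and neck squamous cell carcinoma (HNSCC), sequenced untreated or after 24 h with IFNα, a type I interferon. There were 12 samples under the letters A to F with 2 samples per letter, so that B1 and B2 are both samples of letter B. Letters A and D were untreated, B and E received the low dose and C and F the high dose. The sources used here give 20 and 200 ng/ml for these doses but do not say which letters belong to which line, and letters A to C and D to F are called line sets A-C and D-F. No allele, transgene or other agent is named for any group. Nothing states whether the samples of a letter came from separate cultures, so the p-values measure the spread between these samples, which may be technical. In bulk RNA, fewer responding cells and less RNA per cell cannot be told apart.

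RSAD2 encodes viperin, an enzyme of the radical SAM family that sits on the endoplasmic reticulum and converts CTP into a modified nucleotide that stops viral RNA polymerases. CMPK2 encodes a mitochondrial kinase that phosphorylates UMP and CMP, and so stands on the route by which CTP is supplied. NRIR, also called lncRNA-CMPK2, is a long noncoding RNA named as a negative regulator of the interferon response. Type I interferon binds its receptor on the cell surface and activates ISGF3, a transcription factor complex that includes IRF9 and binds the interferon-stimulated response element, a paired GAAA motif in the promoters of such genes.

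On GRCh38, NRIR (ENSG00000225964) spans positions 6828514 to 6840464 of chromosome 2 and CMPK2 (ENSG00000134326) spans 6840570 to 6866635, both on the minus strand, with 105 bases between them. RSAD2 (ENSG00000134321) runs the other way, on the plus strand, from 6865806 to 6898239. RSAD2 and CMPK2 are thus divergent genes whose annotated spans overlap over 830 bases, 6865806 to 6866635. Only 14 bases are exonic in both genes, and the sole RSAD2 transcript that has them is RSAD2-203. RSAD2-201, the transcript that carries the full coding region, starts at 6877665, inside the gene and 11859 bases from its annotated start, and shares 0 exonic bases with CMPK2. The libraries kept the strand of origin, but whether strand was used when reads were counted is not given in the sources used here.

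**Figure D1:**
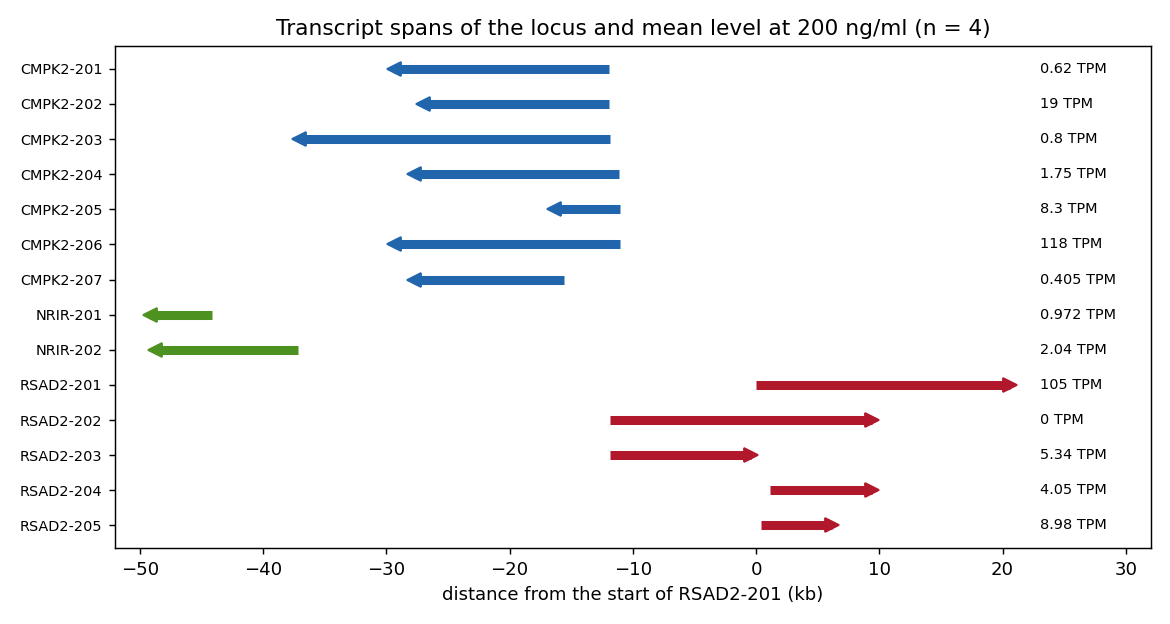
Spans of the 14 annotated transcripts of CMPK2 (blue), NRIR (green) and RSAD2 (red), one per row, with an arrowhead at the 3′ end and the horizontal axis in kb from the start of RSAD2-201. The number at the right is the transcript's mean TPM over the 4 samples at 200 ng/ml, and CMPK2-206 and RSAD2-201 stand out at 118 and 105 TPM.

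The sequence around both 5′ ends of RSAD2 was searched because the annotation places one at the border with CMPK2 and the other, which the abundant transcript uses, inside the gene. The sequences are RefSeq's on GRCh38.p14, in windows of 250 bases before and 50 after each annotated start, and matches on both strands were counted. The border window of RSAD2, chr2:6865635-6865934, held 4 copies of GAAANGAAA, a pair of GAAA units set 1 base apart. Of 35116 such windows, 3.12% held at least 1 copy, 4 held at least 3 copies, and 1, the RSAD2 window itself, held 4. A CMPK2 window that overlaps it, set on RefSeq's start at 6865819, holds 2 of the same 4 copies, read from the other strand. GENCODE places the 5′ ends of the coding CMPK2-201 and CMPK2-202 at 6865696 and 6865712. All 4 copies, at 6865733 to 6865833, lie upstream of both these ends on the minus strand. They lie inside the span of CMPK2-206, which starts at 6866635. The 4 copies, in capitals, are shown with the bases beside them on the plus strand, at chr2:6865722-6865751, chr2:6865756-6865785, chr2:6865790-6865819 and chr2:6865814-6865843.
Copy 1: gccccgcctcgGAAACGAAAcctggcggga
Copy 2: ggcgccggcggGAAACGAAAcccggaggga
Copy 3: ggcgccagcggGAAACGAAAgcgaagcgtt
Copy 4: agcgttgcgggGAAACGAAAgccggaggcc
All of them carry the same letters. The window at the internal start of RSAD2, chr2:6877527-6877826, held none of these and instead 1 match to GAAANNGAAA, the paired motif set 2 bases apart, at 6877632 to 6877641 on the opposite strand, a motif present in 3.57% of windows. It also held TATAAA, found in 11.53% of windows, at 30 bases before RefSeq's start of RSAD2, 6877777, which lies downstream of the GENCODE start. TTCNNNGAA, also searched, was in 7.66% of all windows and in none of those of the 3 genes. The paired motif is shown in capitals in the 138 bases that precede the annotated start of RSAD2-201, chr2:6877527-6877664, plus strand.
RSAD2-201 upstream: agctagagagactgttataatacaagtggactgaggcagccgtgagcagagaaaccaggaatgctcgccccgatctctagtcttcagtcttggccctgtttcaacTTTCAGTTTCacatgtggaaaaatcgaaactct
The NRIR window and the other CMPK2 windows held none of the 4 motifs, which says only that these letters are not in those windows. A match is a description of sequence and not a measured binding site.

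Levels are given first as TPM, the deposited abundance scaled for transcript length and depth, which lets genes be compared with each other. RSAD2 was low in every untreated sample, at 3.42 and 4.71 TPM in A1 and A2 and at 2.65 and 2.68 TPM in D1 and D2. It reached 59.6 and 60.8 TPM in B1 and B2 and 76.8 and 89.0 TPM in E1 and E2 at 20 ng/ml. At 200 ng/ml it stood at 107 and 103 TPM in C1 and C2 and at 148 and 136 TPM in F1 and F2. No 2 dose groups overlapped for RSAD2, and the order of the letters by mean was D, A, B, E, C and F, with no overlap between neighbours. The mean at 200 ng/ml, 124 ± 22.1 TPM (SD, n = 4), placed RSAD2 1038th among the 60099 genes listed.

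CMPK2, the nucleotide kinase, was at 8.97 and 6.45 TPM in A1 and A2 and at 2.26 and 2.44 TPM in D1 and D2. At 20 ng/ml it was at 37.1 TPM in B1 and 94.5 TPM in B2, and at 107 and 136 TPM in E1 and E2. At 200 ng/ml it was at 146 and 129 TPM in C1 and C2 and at 168 and 151 TPM in F1 and F2. Every treated sample was above every control, but the treated doses overlapped, since E2 at 20 ng/ml lay above C2 at 200 ng/ml. B1 stood apart with 554 counts of CMPK2 against 1941 in B2, while the RSAD2 counts of the same samples were 1367 and 1659. The order by mean was D, A, B, E, C and F as for RSAD2, and E and C did not differ beyond their spread. The mean at 200 ng/ml was 148 ± 15.8 TPM (SD, n = 4), which ranked 805th.

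NRIR, the noncoding RNA, was scarce. Its counts were 2 in A1 and 0 in A2, D1 and D2. They were 16 and 7 in B1 and B2, 16 and 24 in C1 and C2, 7 and 3 in E1 and E2, and 6 and 5 in F1 and F2. All treated samples were above all controls, and the 4 samples of the A-C set at the treated doses held 63 of the 84 treated counts. In TPM the treated samples lay between 0.800 and 6.26, with a mean at 200 ng/ml of 3.01 ± 2.51 (SD, n = 4) and rank 15216. The letters ran D, A, F, E, B and C by mean, in which D and A, F and E, and E and B did not differ beyond their spread. With a total of 10517448 to 16056734 counts per sample, 0 counts allow up to 3 counts, or 0.187 to 0.207 CPM in the 3 controls at 0, and this limit covers counting error only.

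**Figure D2:**
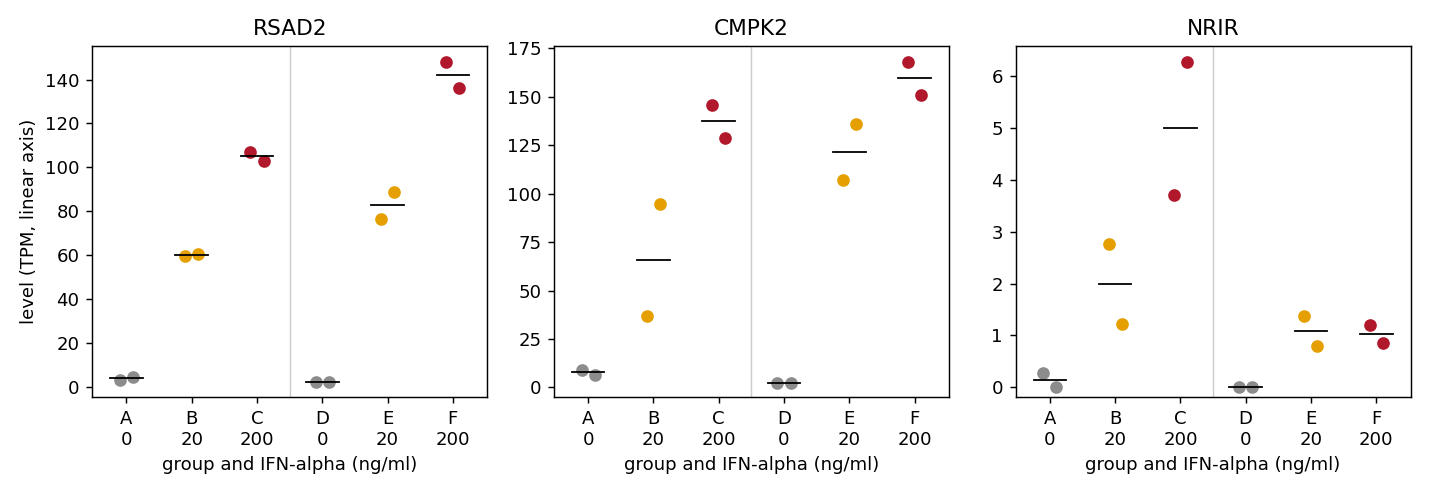
Level in TPM on a linear axis of RSAD2, CMPK2 and NRIR in each of the 12 samples by letter and IFNα dose, with points for samples and a bar for the mean of 2. Controls (grey) lie below all samples at 20 ng/ml (orange) and 200 ng/ml (red), B1 is the lower point of CMPK2 in B at 37.1 TPM, and NRIR in F reaches 1.20 TPM against 6.26 in C.

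Fold changes came from edgeR fitted to the counts of all 12 samples over the 19944 genes that passed a filter on low counts. All 3 genes passed it, NRIR only through its treated samples. At 200 ng/ml against control, RSAD2 was 5.30 higher on the log2 scale (SE 0.10), or 39.3-fold, and CMPK2 5.08 (SE 0.37), or 33.8-fold. At 20 ng/ml the log2 fold changes were 4.49 (SE 0.10) for RSAD2 and 4.34 (SE 0.36) for CMPK2, or 22.4-fold and 20.2-fold. Most of the response was therefore present at the low dose on the log2 scale. The value of CMPK2 at 20 ng/ml was 4.63 without B1 and 3.85 without B2. As background, 2.14% of the genes tested were called at 200 ng/ml and 1.15% at 20 ng/ml, where called means an adjusted p of at most 0.05 and a change of at least 2-fold. Nothing is read from this for the 3 genes, since the contrast was used to choose them.

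For NRIR the controls held too few counts for a fitted fold change, so pooled counts, scaled to the total count, were compared. In set A-C the 40 counts at 200 ng/ml against 2 in the controls gave 25.7-fold with an exact 95% interval for counting error of 6.66 to 219, and the 23 counts at 20 ng/ml gave 12.1-fold with an interval of 2.98 to 106. These folds depend on single libraries. The first was 11.3 without A2 and 32.8 without C1, and the second 5.32 without A2, 6.76 without B1 and 18.3 without B2. Without A1 the controls held 0 counts and the folds were at least 9.57 and at least 4.49 against 3 counts. In set D-F the controls held 0 counts, and against a floor of 3 counts over both controls NRIR was at least 4.61-fold higher at 200 ng/ml, from 11 counts, and at least 4.20-fold higher at 20 ng/ml, from 10 counts. These D-F bounds depend on the depth of both controls, and with 1 control left out they went down to 2.28 and 2.07. All bounds against 3 counts take the treated counts as observed. They allow for counting error in the controls alone, unlike the exact intervals.

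The step from 20 to 200 ng/ml was tested, with 0.0451% of all genes called in that contrast. RSAD2 was 0.81 higher on the log2 scale at 200 ng/ml (SE 0.08, edgeR quasi-likelihood adjusted p = 0.0104). C lay above B and F above E in every sample. This is a 1.75-fold change, under the 2-fold needed for a call. By line set the step was 0.84 (SE 0.11) in letters A to C and 0.78 (SE 0.11) in letters D to F. CMPK2 gave 0.74 (SE 0.30, adjusted p = 0.505), with 0.45 without B1 and 1.23 without B2. NRIR gave 0.62 (SE 0.60, adjusted p = 0.796), and its step was 1.11 between B and C but 0.13 between E and F. For CMPK2 and NRIR a dose difference was not detectable at this number of samples.

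Untreated samples of the line sets differed in CMPK2. It was 4.25-fold lower in D than in A (log2 fold change -2.09, SE 0.54, edgeR adjusted p = 0.0107), a contrast in which 26.6% of all genes were called, so that a call there is common. The adjusted p was 0.0527 without A1 and 0.0796 without D1, and the log2 fold changes were then -1.87 and -1.63. RSAD2 differed by -0.33 (SE 0.14, adjusted p = 0.0878). In the treated samples these gaps had another sign or size. At 20 ng/ml, E against B gave 0.32 (SE 0.11, adjusted p = 0.0412) for RSAD2, under 2-fold, and 0.76 (SE 0.42, adjusted p = 0.173) for CMPK2, with 26.2% of genes called in that contrast. The RSAD2 value was 0.19 without E2 and 0.44 without E1. Its edgeR adjusted p was 0.103 with no filter on low counts and 0.0614 with only these groups fitted, and 0.0434 with DESeq2. The CMPK2 value rests on B: it was 0.18 (adjusted p = 0.681) without B1 and 1.73 (adjusted p = 0.00451) without B2. At 200 ng/ml, F against C gave 0.25 (SE 0.11, adjusted p = 0.0883) for RSAD2 and 0.02 (SE 0.42, adjusted p = 0.979) for CMPK2, with 28.4% called.

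NRIR ran in the other direction, with lower counts in D-F. It passed the low-count filter through B1, C1 and C2, the samples above 1 CPM, so a test of the line sets after that filter would favour a difference and is not used. With no filter, F against C gave a log2 fold change of -2.06 (edgeR adjusted p = 0.0888) and E against B gave -1.12 (adjusted p = 0.435), neither of which passed. In counts C held 16 and 24 and F held 6 and 5, with no overlap, while B held 16 and 7 and E held 7 and 3, with B2 and E1 at the same count.

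Responses to IFNα by line set are listed side by side, since both doses share the same controls. At 200 ng/ml RSAD2 was higher by 5.00 (SE 0.14) in A-C and 5.59 (SE 0.14) in D-F on the log2 scale. CMPK2 was higher by 4.03 (SE 0.48) in A-C and 6.13 (SE 0.56) in D-F. At 20 ng/ml RSAD2 gave 4.16 (SE 0.14) and 4.81 (SE 0.14), and CMPK2 gave 2.92 (SE 0.47) and 5.76 (SE 0.55). The difference between line sets, tested as an interaction, was 2.1 (SE 0.69, edgeR adjusted p = 0.154) for CMPK2 at 200 ng/ml and 2.84 (SE 0.69, adjusted p = 0.154) at 20 ng/ml. For RSAD2 it was 0.58 (SE 0.18, adjusted p = 0.140) and 0.65 (SE 0.18, adjusted p = 0.225). None of these 4 passed, in contrasts where 0.998% and 0.231% of genes were called. The CMPK2 difference at 20 ng/ml did pass without B2 (3.82, adjusted p = 0.0282) and with DESeq2 (2.85, adjusted p = 0.0161), and was 2.27 (adjusted p = 0.156) without B1.

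**Figure D3:**
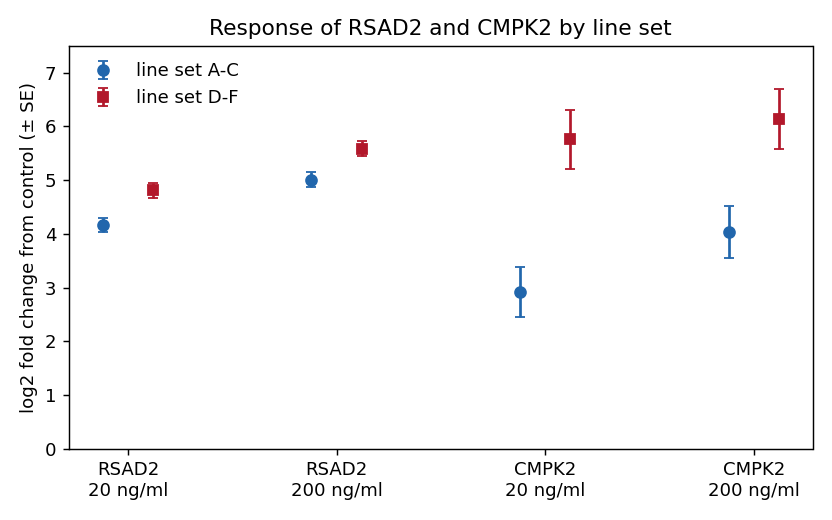
Log2 fold change from the untreated controls (vertical axis, edgeR, bars are the standard error) of RSAD2 and CMPK2 at 20 and 200 ng/ml, with circles for line set A-C and squares for D-F. The RSAD2 values lie between 4.16 and 5.59, while CMPK2 runs from 2.92 in A-C at 20 ng/ml to 6.13 in D-F at 200 ng/ml.

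The ratio of CMPK2 to RSAD2, taken on TPM with 0.01 added, asks whether the divergent pair kept its proportions, and sequencing depth cancels in it. CMPK2 was 2.61 and 1.37 times RSAD2 in A1 and A2 and 0.855 and 0.911 times in D1 and D2. It was 0.623 times in B1 and 1.56 times in B2, 1.36 and 1.26 times in C1 and C2, 1.40 and 1.53 times in E1 and E2, and 1.13 and 1.11 times in F1 and F2. All treated samples other than B1 thus had more CMPK2 than RSAD2 per length. Between 200 and 20 ng/ml the log2 ratio differed by 0.01 in a two-sided exact permutation test within line sets (p = 1.00, adjusted p = 1.00 over 6 tests), in which 36 arrangements allow no p under 0.0556. Without B1 the difference was -0.32 (exact permutation p = 0.0556). Between line sets it differed by -0.25 (exact permutation test, p = 0.509, adjusted p = 1.00), and by -0.47 (exact permutation p = 0.0185) without B1, but by 0.17, in the other direction, in the treated samples alone (exact permutation p = 1.00).

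NRIR was a small fraction of either neighbour. In treated samples the NRIR to RSAD2 ratio was 0.0466 and 0.0204 in B1 and B2, 0.0346 and 0.0611 in C1 and C2, 0.0179 and 0.00910 in E1 and E2, and 0.00818 and 0.00639 in F1 and F2. Every treated sample of A-C was above every treated sample of D-F. Over all doses the log2 ratio was lower in D-F by a difference of -1.92 (two-sided exact permutation test within doses, p = 0.0463, adjusted p = 0.194), and in the treated samples alone, chosen after the data were seen because 3 of 4 controls are listed at 0, it was -1.97 (exact p = 0.0556, the smallest that 36 arrangements allow). The NRIR to CMPK2 ratio differed by -1.67 (exact permutation p = 0.0648, adjusted p = 0.194). Without A1, the 1 control with NRIR counts, the NRIR to RSAD2 difference was -1.04 (exact permutation p = 0.139). By dose, both NRIR ratios differed by less than the spread, by -0.12 and -0.13 (exact permutation p = 0.833 and 0.889).

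**Figure D4:**
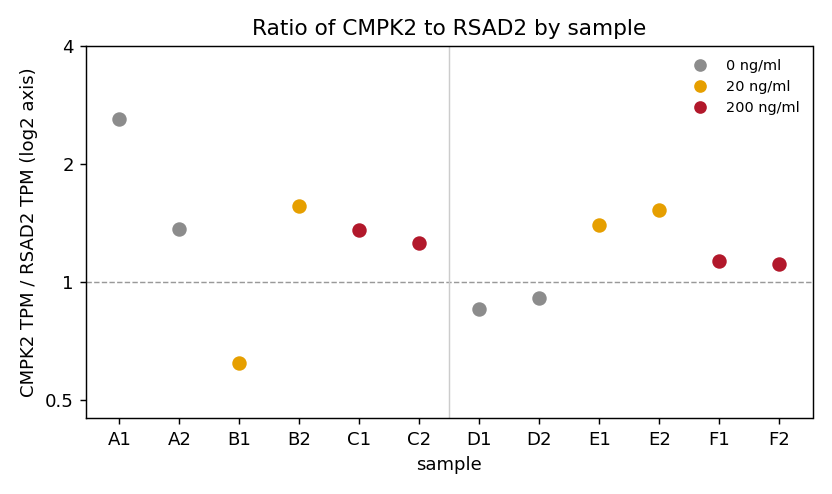
Ratio of CMPK2 TPM to RSAD2 TPM on a log2 axis in each of the 12 samples, coloured by IFNα dose, with a dashed line at equal levels. B1 at 0.623 is the lowest sample and A1 at 2.61 the highest, and the other 7 treated samples lie between 1.11 and 1.56.

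The transcript table lists 14 transcripts of the 3 genes, all at their GENCODE release 29 positions, and their counts add up to the gene count in all 12 samples. RSAD2-201, the full-length coding transcript of 3519 bases, made up most of RSAD2. In TPM it was nearly even over the untreated samples, at 2.36 and 2.59 in A1 and A2 and 2.34 and 2.41 in D1 and D2. It was at 48.2 and 49.8 in B, 65.7 and 75.6 in E, 92.0 and 83.1 in C and 127 and 119 in F. The retained-intron transcript RSAD2-205 followed at 8.98 ± 1.83 TPM (SD, n = 4) at 200 ng/ml. RSAD2-203, the noncoding transcript that starts at the CMPK2 border beside the 4 GAAANGAAA copies, was at 5.34 ± 1.71 TPM at 200 ng/ml and 4.60 ± 0.348 TPM at 20 ng/ml, and at 0 in every control but A2, where it had 1.27 TPM from 10 counts. RSAD2-202, a coding transcript from the same border, was listed at 0 in all samples at 200 ng/ml.

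The share of RSAD2-201 in the gene's TPM differed between line sets. Among controls it was 69% and 55.0% in A1 and A2 against 88.6% and 90.3% in D1 and D2. At 20 ng/ml it was 80.9% and 81.9% in B against 85.5% and 85.0% in E, and at 200 ng/ml 85.6% and 81.0% in C against 85.8% and 87.1% in F. At each dose both D-F samples were above both A-C samples. The mean difference was 11.5 percentage points (two-sided exact permutation test within doses, p = 0.00926, the smallest this design allows, adjusted p = 0.037 over 4 tests). It was 9.16 without A2, the lowest sample, and 3.51 in the treated samples alone (exact permutation p = 0.0556, the smallest possible there). As a share of counts, which gives short transcripts less weight, it was 3.41 percentage points (exact permutation p = 0.0185). The controls behind it held only 71 to 108 counts of RSAD2. RSAD2-201 held 65 of 71 in A1, 92 of 108 in A2, 72 of 74 in D1 and 78 of 81 in D2. The control shares thus rest on the few counts left for the shorter transcripts, of which RSAD2-203 held 10 in A2. By dose the share differed by 1.56 percentage points (exact permutation p = 0.222, adjusted p = 0.444), by 0.41 without C1 and by 2.70 without C2.

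CMPK2 was assigned mainly to another transcript in treated samples than in controls. In 7 of the 8 treated samples the leading transcript was CMPK2-206, annotated as a processed transcript with no coding region, at 118 ± 14.3 TPM (SD, n = 4) and 79.1% ± 2.00 of the gene at 200 ng/ml. In B1 the coding CMPK2-202 led, at 17.6 TPM and 47.3%, over CMPK2-206 at 13.3 TPM and 35.8%. In controls CMPK2-206 was at 3.67 and 0 TPM in A1 and A2 and at 0.690 and 0.400 TPM in D1 and D2. CMPK2-201, the coding transcript of 2884 bases, went the other way, with 3.94, 4.40, 0.0800 and 1.63 TPM in A1, A2, D1 and D2 and no more than 1.10 TPM in any treated sample. The coding transcript CMPK2-202 was at 19.0 ± 4.44 TPM at 200 ng/ml and 0.510 ± 0.527 TPM in controls. Coding transcripts together were higher in level and, outside D1 and B1, lower in share. They summed to 12.6 to 24.5 TPM in treated samples against 0.0800 to 5.65 TPM in controls, and to 11.6% to 17.7% of CMPK2 in the treated samples other than B1. They were 48.2% and 87.6% of it in A1 and A2 and 3.54% and 83.6% in D1 and D2, where D1 held 26 counts in all and the noncoding CMPK2-205 led with 64.6%. These are descriptions, since the contrast with control was used to choose the gene.

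How far the counts of these transcripts can be told apart is limited by their shared bases. CMPK2-206 and CMPK2-201 share 2207 bases, 91.3% of the former and 76.5% of the latter, and a deposited count for one of them is an estimate of how reads were divided. The low CMPK2 of B1 lay in this pair. The summed count of CMPK2-201 and CMPK2-206 was 249 in B1 against 1678 in B2 and 1279 to 2169 in the other treated samples. The remaining CMPK2 transcripts held 305 counts in B1 and 263 in B2, within the 238 to 368 of the other treated samples. What lowered the pair in B1 was not tested. The share of CMPK2-206 was 35.8% in B1 and 76.2% to 81.7% in the other samples at 20 ng/ml, and differed by 10.5 percentage points between 200 and 20 ng/ml (exact permutation p = 0.556, adjusted p = 0.556) and by -0.65 without B1. Between line sets it differed by 7.85 percentage points (exact permutation p = 0.444, adjusted p = 0.556), by 10.27 in the treated samples alone, by 0.38 without B1, by 15.32 without B2, by 14.67 without A1 and by 1.03 without A2.

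**Figure D5:**
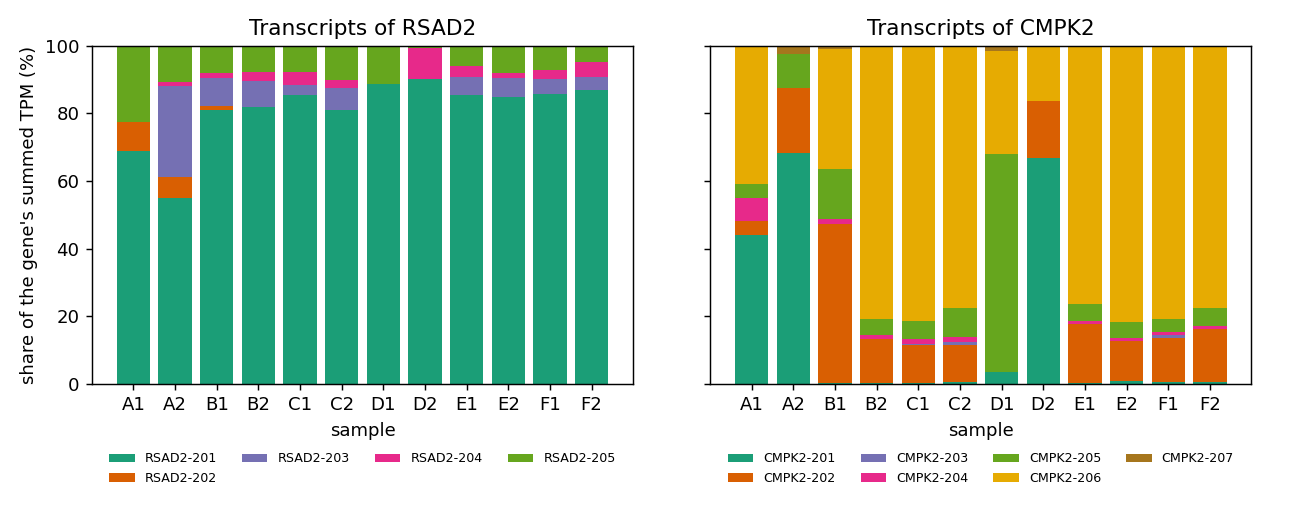
Share in percent of each annotated transcript in the summed TPM of RSAD2 (left) and CMPK2 (right), stacked for each of the 12 samples. RSAD2-201 fills 55.0% to 90.3% of every bar, whereas CMPK2-206 fills 76.2% to 81.7% in treated samples other than B1 (35.8%) and 0% to 40.9% in controls.

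CMPK2-203, the coding transcript that reaches furthest towards NRIR and ends 105 bases from it, was at 0 TPM in all controls and at 0.800 ± 0.742 TPM at 200 ng/ml, from 2 to 14 counts. NRIR itself was divided between NRIR-202, the longer span that begins at that gap, with 2.04 ± 1.85 TPM at 200 ng/ml, and NRIR-201 with 0.972 ± 0.712 TPM. With so few counts the division of NRIR between them could not be resolved.

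Almost no reads were assigned to other genes around the 3. Within 500 kb of their outer ends the table lists 13 further genes, of which 10 had 0 counts in all 12 samples and 12 had at most 1 count in total. The exception was RNF144A, an E3 ubiquitin ligase gene that starts 19152 bases beyond the end of RSAD2. It held 121 to 195 counts in A-C and 14 to 31 in D-F. It was the single flanking gene tested, and it was not called at 200 ng/ml: the log2 fold change was 0.75 (SE 0.23, edgeR unadjusted p = 0.00853, adjusted p = 0.0719), and 0.76 with DESeq2 (adjusted p = 0.0483), which is under 2-fold. By line set the log2 fold change of RNF144A at 200 ng/ml was 0.29 (SE 0.28) in A-C and 1.21 (SE 0.36) in D-F, and neither was called. Between untreated line sets it differed by -3.44 on the log2 scale, with the lower level in D (SE 0.34, edgeR adjusted p = 3.17e-05). In that contrast 26.6% of all genes were called. CMPK2 differed in the same direction, while RSAD2, which lies between them, differed by -0.33 and was not called.

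Other genes of pyrimidine nucleotide supply, the pathway that feeds both enzymes, were mostly not called. Of 35 such genes, all tested, 3 were called higher at 200 ng/ml and 0 lower. Earlier results of these data were known when this list was chosen, so its calls and p-values are descriptions. The same 3 were called at 20 ng/ml, where 2.14% and 1.15% of all genes were called at these doses. Others changed by less than 2-fold at 200 ng/ml with an edgeR adjusted p of at most 0.05. Some were lower and some higher, with log2 fold changes from -0.515 to 0.244. At an edgeR unadjusted p of at most 0.05 there were 16 of the 35, and 4759 of the 19944 genes tested. The median log2 fold change of the 35 at 200 ng/ml was -0.04, and that of all genes tested was -0.01. TYMP, the phosphorylase that cleaves thymidine, rose by 2.77 on the log2 scale (SE 0.09, edgeR adjusted p = 5.98e-08). SAMHD1, which hydrolyses dNTPs and restricts viruses, rose by 2.72 (SE 0.08, adjusted p = 1.95e-08), and NT5C3A, a nucleotidase that acts on CMP and UMP, by 2.15 (SE 0.10, adjusted p = 7.87e-07). As background, all 3 enzymes are known for breaking nucleotides or nucleosides down.

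The enzymes that make CTP from UTP, and the nucleotide kinases CMPK1 and DTYMK, were not called. CMPK1, the cytosolic UMP and CMP kinase, was at 116 ± 29.6 TPM in controls and 130 ± 55.3 TPM at 200 ng/ml (SD, n = 4), with a log2 fold change of 0.08 (SE 0.07, edgeR adjusted p = 0.577). CTPS1 and CTPS2, which make CTP from UTP, gave 0.17 (SE 0.09, adjusted p = 0.298) and 0.14 (SE 0.10, adjusted p = 0.425). DTYMK, the thymidylate kinase, gave -0.32 (SE 0.10, adjusted p = 0.0796). Between 200 and 20 ng/ml, edgeR called 0 of the 35, with 5 at an unadjusted p under 0.05 and 0 called by DESeq2.

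Of 7 radical SAM enzymes other than RSAD2, edgeR called 0 at 200 ng/ml, with 1 at an unadjusted p under 0.05 and 0 called by DESeq2, and the median log2 fold change was 0.04. RSAD1, which shares the domain, gave -0.76 (SE 0.36, adjusted p = 0.244). Of 12 genes for iron-sulfur cluster delivery and for proteins known to bind viperin, edgeR also called 0, with 6 at an unadjusted p under 0.05 and 0 by DESeq2, with a median of -0.17 and a range of -0.45 to 0.37.

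Of 13 genes of the interferon receptor, its signalling and its feedback, 5 were called higher at 200 ng/ml, 0 lower, and 8 were not called. The same 5 were called at 20 ng/ml, beside the same 2.14% and 1.15% of all genes. The median log2 fold change of the 13 was 0.32 at 200 ng/ml. This list too was chosen with earlier results known, and its calls and p-values are descriptions. IRF1 was among the 8, with a log2 fold change of 0.40 (SE 0.06, edgeR adjusted p = 0.00432) at 200 ng/ml, which is under 2-fold. ISG15, a ubiquitin-like modifier, rose by 4.20 on the log2 scale (SE 0.16, edgeR adjusted p = 1.88e-07). USP18, which removes ISG15, damps receptor signalling and could share reads with the near-identical USP41, rose by 4.16 (SE 0.11, adjusted p = 1.37e-08). The transcription factors IRF7 and IRF9 rose by 2.81 (SE 0.16, adjusted p = 3.26e-06) and 2.69 (SE 0.13, adjusted p = 1.03e-06). STAT2, a subunit of ISGF3, was the fifth and rose by 1.80 (SE 0.08, adjusted p = 6.8e-07). In the difference between line sets at 200 ng/ml, ISG15 and USP18 were called, with the larger fold change in D-F, beside 0.998% of all genes. At 20 ng/ml ISG15 alone was called in this list, beside 0.231%. Both genes were also called between untreated D and A, as were 26.6% of all genes. There, 5 of the 6 genes called in this list were lower in D. Neither gene was called in E against B or F against C, where 26.2% and 28.4% of all genes were called.

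The genes whose pattern over the 12 samples was most like that of each member were found by the root mean square difference of log2 CPM values centred on each gene's mean. For RSAD2 these were IFIT1 (0.280), XAF1 (0.332), MX1 (0.462), LGALS9 (0.552) and OAS1 (0.563). For CMPK2 they were IFIT1 (0.576), MX1 (0.580), IFI6 (0.641), ISG15 (0.651) and XAF1 (0.672). CMPK2 was 9th in the order for RSAD2 and RSAD2 was 6th in the order for CMPK2, at 0.695. For NRIR, FBXO39 (0.428), GBP1P1, a pseudogene of GBP1 (0.473), GBP1 (0.563), SP110 (0.592) and TDRD7 (0.596) came first, and its neighbours lay at 1.47 and 1.59. The order for NRIR depends on the prior count added before the log, since 1 of its 5 stayed in the list with 0.5 in place of 2, while all 5 did for RSAD2 and for CMPK2. With 0.5, RSAD2 and CMPK2 were 47th and 64th in the order for NRIR, at 1.2 and 1.3. With 2 they were 11548th and 13932nd, so how near NRIR lies to its neighbours is not settled by these values. All genes share the same 12 libraries, and these values are descriptions.

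The total count per sample was 12670755 to 16056734 in controls, 11174407 to 14865450 at 20 ng/ml and 10517448 to 11854183 at 200 ng/ml, so that every sample at 200 ng/ml was shallower than every control. Its part in these results was not tested beyond the scaling in the fit. The labelled squamous lines expressed KRT5, TP63, CDH1, EPCAM and SFN at 109 TPM or more in all samples. KRT17 was at 90.6 TPM or more, KRT6A at 47.5 or more and DSG3 at 15.5 or more. KRT14 ran from 0 to 49.2 TPM. Of these 9 squamous markers, 6 were called lower and 0 higher in D than in A, where 26.6% of all genes were called. Their lowest log2 fold change in that contrast was -12.2. Of 14 markers of leukocytes, plasmacytoid dendritic cells, endothelium and fibroblasts, 8 stayed below 1 TPM in all samples, PTPRC reached 0.0425 TPM, and CD3E and IL3RA, the latter a marker of the plasmacytoid cells that produce type I interferon, were at 0 throughout. The highest marker was CDH5, which ran from 0 to 21.7 TPM and was called lower in D than in A (log2 fold change -7.93). The summed level of the 14 was 9.35 to 33.8 TPM in controls and 11.5 to 35.5 TPM in treated samples.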

How the data were processed

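RNA-seq of 12 samples was used, with 2 samples for each of 6 letters. The authors deposited, for each gene and transcript, an estimated count in whole numbers, a TPM and an FPKM value. The deposited TPM and FPKM are scaled for length and depth, the deposited estimated counts are not, and FPKM was not used. The submitters' processing notes name Trimmomatic 0.36, HISAT2 2.1.0, StringTie 1.3.3b and GRCh38.p10. StringTie estimates how reads divide among transcripts with shared exons, so transcript values are less certain than gene values.

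The members, gene lists and tests were chosen with earlier results of these data known. Samples were grouped by letter, line set and dose. Counts were fitted with edgeR 4.0.16 in R 4.3.3 (TMM, filterByExpr, 19944 genes, quasi-likelihood F test, Benjamini-Hochberg adjustment over all genes) in 1 fit of the 6 groups, and genes with an adjusted p of at most 0.05 and at least a 2-fold change were called. Standard errors were derived from F, as the log2 change over its root. The fits were tested on simulated counts. NRIR was compared between line sets without the filter. Ratios and shares were tested by exact permutation, two-sided. Named genes are the 3 members, tested genes within 500 kb and the 5 genes most like each member. Up to 4 called genes per list with the largest change were also named, as were CMPK1, DTYMK, CTPS1, CTPS2 and RSAD1. STAT2, IRF1 and the markers were named outside this rule. One gene of the interferon signalling list is not reported here. Alternatives were DESeq2 1.42.0, RLE scaling, no filter, the replicate block, the compared groups alone, the unadjusted p, leaving out each sample, other pseudocounts and units, and the treated samples alone. The exact intervals (95%) cover counting error only, and the floors (3 counts) cover that of the controls only. Python 3.11.15 with pandas 2.3.3, scipy and matplotlib 3.10.9 was used. Annotation was GENCODE release 29.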

Additional observations from a re-analysis of the deposited data

Results flagged for a closer look

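In groups of 4 samples of a dose, member levels, ratios and leading-transcript shares were examined for 1 sample far from the others. Of 24 such groups, 4 held such a sample. Chance gives about 1 in 20 for independent groups without tied values, and these groups share samples and counts. At 20 ng/ml B1 had the lowest log2 ratio of CMPK2 to RSAD2, -0.68, against 0.48 to 0.64 in the other samples. In the same sample the share of CMPK2-206 was 35.8% against 76.2% to 81.7%. Both come from the same low count of CMPK2-206 and are not independent. Among controls A1 had 0.272 TPM of NRIR, from 2 counts, while the others were listed at 0, and its log2 ratio of NRIR to RSAD2 was -3.61 against -8.88 to -8.05. Both values of A1 rest on those 2 counts. With the other controls at 0, any NRIR level in A1 would have been flagged, so the rate of 1 in 20 does not apply to it.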

How the results depend on the processing

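Of 715 recomputed values, 641 kept their direction and side of the threshold or stayed within the limits set for values and counts. For fold changes that threshold joins the adjusted p with the 2-fold change. A change under 2-fold therefore counts as kept even where its adjusted p crossed 0.05, as for RSAD2 in E against B with the compared groups alone. The signs of RSAD2 and CMPK2 against control, known when these genes were chosen, did not change in any alternative run. The number of genes called in each pathway list at 200 ng/ml was the same in every alternative, except that 4 pyrimidine genes in place of 3 passed on the unadjusted p. The replicate numbers did not pair the samples, since same-numbered deviations correlated at -0.0507 to 0.0585. With the replicate block the adjusted p of RSAD2 at 200 against 20 ng/ml was 0.0663, and edgeR called 0 genes for 200 against 20 ng/ml (1739 at an unadjusted p under 0.05, and 43 called by DESeq2 without the block), 69 for the line set difference at 200 ng/ml and 30 at 20 ng/ml. The paired differences of samples numbered 2 were -0.38 for CMPK2/RSAD2, 0.54 for NRIR/RSAD2 and 0.92 for NRIR/CMPK2. The cause of these changes was not tested.

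The genes called for 200 against 20 ng/ml were 9, and 43 with DESeq2, 17 without the filter and 3 to 39 with a sample left out. Those for the line set difference were 199 at 200 ng/ml (323 with DESeq2, 95 in the compared groups alone, 78 to 345 with a sample left out) and 46 at 20 ng/ml (165 with DESeq2, 28 to 61 with a sample left out). Without adjustment of p the counts were 846 at 200 against control, 649 at 20 against control, 378 at 200 against 20, 1253 and 809 for the line set differences, and the values of CMPK2 for those differences (2.1 and 2.84) and of NRIR in F against C (-2.08) passed. NRIR in F against C was -2.09 and passed in the compared groups alone, but the low-count filter, which NRIR met through its A-C samples, favours such a difference. CMPK2 in F against C was -0.01 with DESeq2 and with RLE scaling, and the line set difference of CMPK2 at 20 ng/ml was 2.85 and passed with DESeq2. The NRIR/RSAD2 difference between line sets was -0.87 with 1 TPM added and -1.83 in CPM, and its unadjusted p then missed 0.05. In the treated samples alone, a setting chosen after seeing the data, the line set differences were 0.17 for CMPK2/RSAD2, -1.97 for NRIR/RSAD2 and 3.51 percentage points for RSAD2-201.

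DESeq2 gave no adjusted p for NRIR at 200 against 20 ng/ml. With a sample left out, where the lone sample of its letter is assumed to vary like the other groups, CMPK2 ranged from -2.79 to -1.63 in D against A, 0.18 to 1.73 in E against B, -0.11 to 0.15 in F against C, and 2.27 to 3.82 for the line set difference at 20 ng/ml, and NRIR from -2.42 to -1.65 in F against C. The dose differences ranged from -0.32 to 0.34 for CMPK2/RSAD2, -0.42 to 0.18 for NRIR/RSAD2, -0.76 to 0.49 for NRIR/CMPK2 and -0.65 to 21.75 percentage points for CMPK2-206. The line set differences ranged from -0.47 to -0.03 for CMPK2/RSAD2, -2.80 to -1.04 for NRIR/RSAD2 and -2.39 to -0.94 for NRIR/CMPK2. The NRIR bounds in D-F ranged from 2.28 to 5.10 at 200 ng/ml and 2.07 to 6.14 at 20 ng/ml. Counts of NRIR and of the transcripts in controls are low, and each letter has 2 samples.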
